A study of Mus musculus with 103 samples.

Results

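Dissected primary tumours labelled hepatocellular carcinoma/cholangiocarcinoma (HCC/CC, n = 14) were compared with liver cells captured on Prominin1 beads from mice treated with DDC (n = 9), to find which tumour genes went beyond the response of liver cells to injury. These 23 samples were chosen by their labelled tissue and treatment from a series that holds 80 others, and each was measured on 1 Affymetrix mouse array with perfect match probes. Liver cells captured the same way from untreated mice (n = 5) served as a second baseline. The design text of the series describes tracing Prom1-expressing cells over time and targeting oncogenic changes to them in several organs. For these groups the labels name no strain, genotype, allele, age, sex, or DDC dose and duration, and they do not say whether samples came from separate mice, so the p-values measure the spread between these samples, which may be technical. Both groups of sorted cells were freed of red and dead cells and extracted with a PicoPure kit, whereas tumours were cut out whole and extracted with an RNeasy Mini kit. Sorting, extraction kit and group therefore cannot be told apart.

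Prominin1 is a membrane protein of bile duct cells and of progenitor-like cells in many epithelia. DDC is a porphyrinogenic compound that blocks heme synthesis, plugs small bile ducts with porphyrin, and drives a ductular reaction in which biliary and hepatocytic cells proliferate together. Liver sinusoids are lined by a fenestrated endothelium that supplies hepatocytes with Wnt and BMP ligands, and BMP signals from it set the hepatic output of the iron hormone hepcidin. Carcinomas commonly replace this vascular bed with capillaries and surround themselves with fibroblasts and collagen.

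Levels are the deposited log2 values, so a difference of 1 is a doubling, and levels under the filter value of 4.07 lie near the background of the array, which makes differences against them lower bounds. Calls required a log2 difference of 1 or more in either direction together with a limma p below 0.05 after Benjamini-Hochberg adjustment. Differences are given with their standard errors, means with their standard deviations. In bulk RNA a lower level can stem from fewer cells of a type or from less RNA per cell, and these cannot be told apart here.

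The sorted libraries were not uniform. The mean level of 11 sinusoidal endothelial markers ran from 8.12 to 11.44 across the DDC samples, and it exceeded 10.6 in DDC samples 1, 2, 4 and 5. Macrophage markers were highest in samples 1, 2 and 5, at 11.09, 11.27 and 11.18, whereas hepatocyte markers were lowest in the same samples, at 11.26, 9.92 and 11.12. Prom1 itself, the gene of the sorted protein, lay at 3.92 and 3.31 in DDC samples 1 and 2, below the filter value, and between 6.10 and 9.31 in the other 7. In the tumours Prom1 ranged from 2.96 through a median of 7.74 to 10.96, and the difference from DDC cells was 0.04 ± 0.94 (adjusted p = 0.98). Tumours 5, 7 and 14 held Prom1 levels of 2.96, 3.47 and 3.02. Tumours 2 and 11 stood apart by their biliary markers, with Krt19 at 11.58 and 10.93 against a tumour median of 5.79.

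Sex-linked transcripts also followed the groups. Xist, transcribed from the inactive X chromosome of female cells, exceeded 7 in 12 of 14 tumours, in 1 of 9 DDC samples (sample 5, at 11.27) and in 0 of 5 untreated samples. The Y-linked Eif2s3y showed the reverse, with 7.76 and 9.03 in tumours 11 and 13, at most 3.22 in the other 12, and 9.0 to 9.56 in every DDC sample but sample 5. Results below are therefore also given with a term for high Xist wherever that ended a call. The same holds for leaving out DDC samples 1, 2, 4 and 5. Both settings were chosen after the data had been seen. Because high Xist nearly followed group, sex and lost precision cannot be told apart where that term ended a call. Against untreated cells, the group difference in that fit rests on tumours 11 and 13 alone. The actin 3' minus 5' difference, which grows with RNA degradation, was 0.87 ± 0.19 in tumours, 0.997 ± 0.35 in DDC cells and 1.45 ± 0.25 in untreated cells. The same measure for Gapdh was 0.899 to 1.23 in untreated cells, at most 0.703 in tumours and at most 0.551 in DDC cells, so the untreated samples stood wholly apart, and its part in the comparisons with them was not tested. No array was a copy of another, since the closest pair had a Pearson r of 0.9926 over probe sets.

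**Figure D1:**
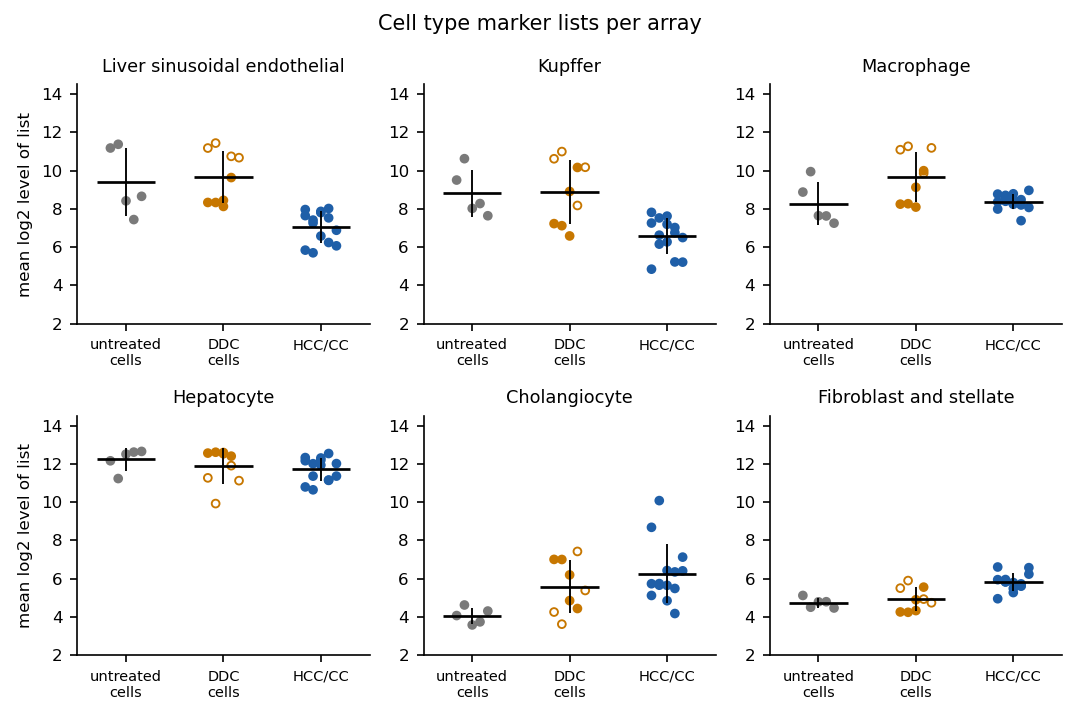
Mean log2 level of 6 cell type marker lists in each array (points), with the group mean (bar) and standard deviation (line), for untreated cells (n = 5), DDC cells (n = 9) and HCC/CC (n = 14). Open points are the 4 DDC samples whose sinusoidal endothelial mean exceeds 10; no tumour reaches the lowest DDC value of 8.12 on that list.

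Of 10815 genes tested between tumours and DDC cells, 543 were called higher in the tumours (5.02%) and 544 lower (5.03%), and the median difference of all tested genes was 0.04. Without the 4 DDC samples rich in sinusoidal transcripts these shares were 3.09% and 2.38%. Against untreated cells, 1956 of 11071 genes were higher in the tumours (17.7%) and 675 lower (6.1%), a split of 74.3% higher that became 50.1% after quantile normalization. DDC cells against untreated cells gave 1798 higher (16.4%) and 590 lower (5.39%) of 10939 genes, with 75.3% of calls higher and 52.8% after quantile normalization. The medians of all genes in these comparisons, 0.31 and 0.25, fell to 0.00 and -0.01 with that scaling.

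A gene was counted as beyond injury when the tumours differed in the same direction from DDC cells and from untreated cells, 2 comparisons that share the 14 tumours. Of 10660 genes tested in both, 293 lay above both sorted groups (2.75%) and 224 below both (2.1%). With the term for high Xist these shares were 1.6% and 0.75%, and without the 4 DDC samples the lower share was 1.04%. Of the 293 and 224 genes, 108 and 68 were also in the lists made with the Xist term, and 155 and 86 in those made without the 4 DDC samples. Among the 543 genes higher than in DDC cells, 247 were not called against untreated cells and 3 were lower there. Among the 544 lower genes, 264 were not called against untreated cells, 26 were higher there and 30 were not tested. Without regard to any call, all 14 tumours lay above every DDC sample for 50 genes (0.462%) and below every one for 58 (0.536%). They lay above every DDC and untreated sample for 19 genes (0.176% of 10815) and below every one for 13 (0.12%); of these, 11 and 12 were also beyond injury.

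The 11 genes higher without overlap were led by Igfbp3, which encodes a carrier and inhibitor of insulin-like growth factors. Its level ran from 7.04 through a median of 8.94 to 11.58 in tumours and from 3.06 through 4.66 to 5.45 in DDC cells, and the 5 untreated samples held 6.20, 4.97, 5.24, 4.64 and 4.31. Every tumour thus exceeded the highest sorted sample, and the difference from DDC cells was 4.54 ± 0.51 (adjusted p = 5.9e-06). Acta2, smooth muscle actin of myofibroblasts and vessel walls, reached 6.61, 8.59 and 9.37 as lowest, median and highest tumour level against 3.56, 4.53 and 5.33 in DDC cells. No untreated sample exceeded 5.14, and the difference from DDC cells was 3.85 ± 0.35 (adjusted p = 3.3e-07), or 1.92 with its probe sets averaged.

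The serine protease gene Prss23 lay at 6.26 to 9.36 in tumours and 3.83 to 5.82 in DDC cells, a difference of 2.95 ± 0.35. Its call rested on a probe set of the _a_at, _s_at or _x_at classes, some of them named for possible cross-hybridisation. The difference fell to 0.41 without such probe sets. The other 8 genes differed from DDC cells by 1.19 to 2.48. They were Hsf2bp (2.48, or 1.42 with its probe sets averaged), Ankrd37, a hypoxia-inducible gene (2.31), Ppp1r42 (2.18), Lratd2 (2.05), the mesenchymal homeobox gene Prrx1 (1.91), Lama2, a laminin chain of basement membranes (1.72), Fam241b (1.56) and the lysosomal membrane gene Laptm4b (1.19). DDC medians of Ankrd37, Ppp1r42, Prrx1 and Lama2 were below the filter value, so for these the sizes are lower bounds.

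Of the 12 genes below all sorted samples, several are expressed by endothelium. Clec4g, a lectin of sinusoidal endothelium, was lowest at 4.27, with a median of 7.65 and a highest level of 9.89 in tumours, against 10.71, 12.02 and 13 in DDC cells. The 14 tumours spread over more than 5 log2 units yet stayed below every sorted sample, the lowest of which was an untreated one at 9.97. The difference from DDC cells was -4.60 ± 0.71 (adjusted p = 0.0001), or -2.84 with its probe sets averaged. Wnt2, a sinusoidal Wnt ligand of the central lobule, had tumour levels of 3.10, 3.82 and 5.71 and DDC levels of 6.12, 7.62 and 10.24, and its difference of -4.08 ± 0.52 (adjusted p = 1.4e-05) became -2.55 without the 4 endothelial-rich DDC samples.

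Dnase1l3, a secreted nuclease (-4.07), Ptprb, the vascular phosphatase VE-PTP (-2.80), and Ccm2l (-2.49) were each lower in DDC samples 3, 6, 7 and 8 than in the other 5. The decoy receptor gene Il13ra2 (-3.20), the BMP target Id3 (-2.58), the alarmin Il1a (-2.51), Cnksr3 (-1.96) and the cytokine receptor gene Lifr (-1.74) had the same order, with the levels of Lifr at 11.82 to 12.34 in the 4 endothelial-rich DDC samples and 9.82 to 10.82 in the other 5. Without those 4 samples the differences were -1.64 for Ptprb, -1.44 for Ccm2l, -1.98 for Il13ra2, -2.10 for Id3, -1.30 for Il1a and -1.10 for Cnksr3. The immediate early factor Fos (-3.57) did not show this order, with its lowest DDC levels in samples 8 and 9. Lifr and Iffo1 (-1.08) lost their calls without the 4 samples, at -0.87 and -0.67. Iffo1 also lost it in another 5 settings, among them without DDC sample 2 or 5.

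**Figure D2:**
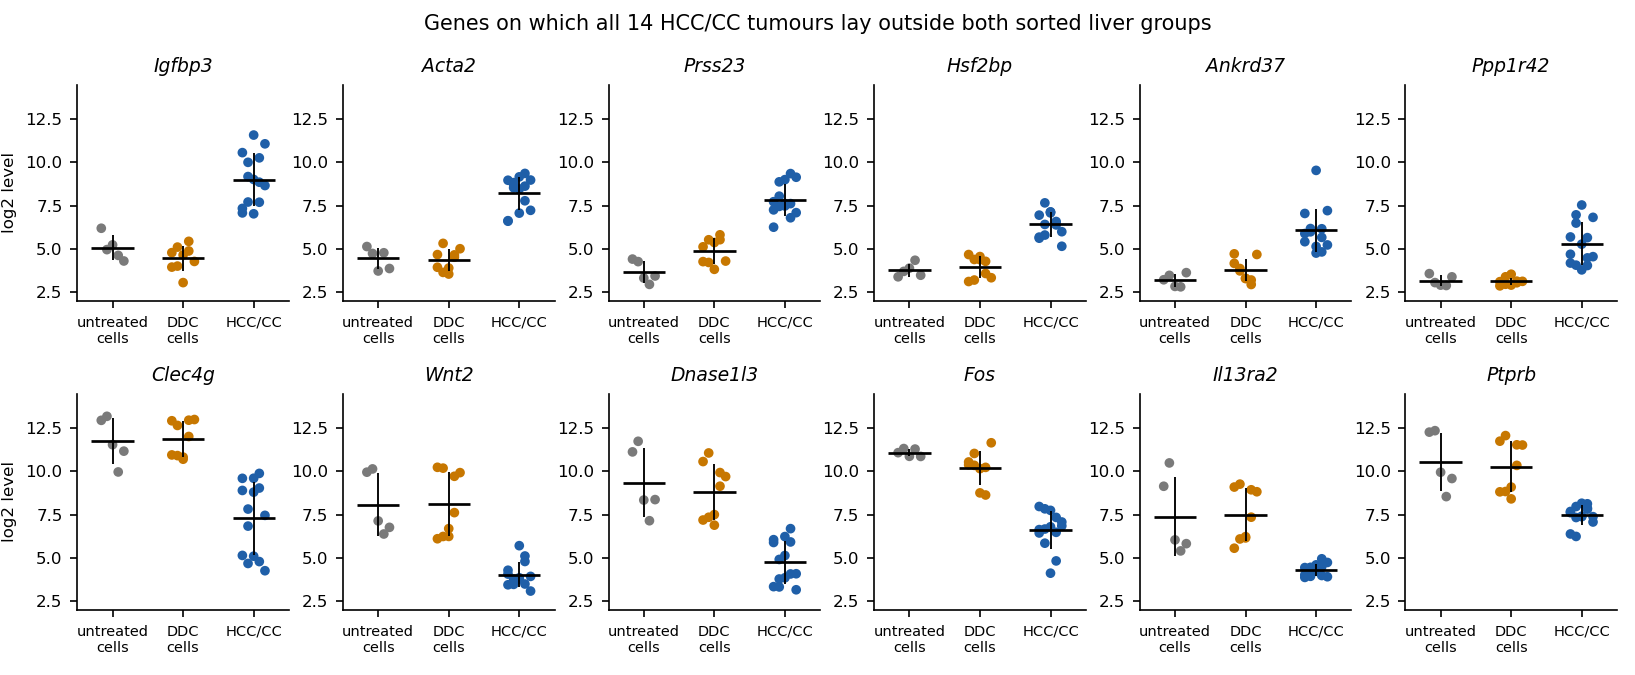
Log2 levels in each array (points) with group mean (bar) and standard deviation (line) for the 6 largest increases (upper row) and decreases (lower row) among genes on which no tumour overlapped any sorted sample. In each panel the 14 tumours lie wholly above or below the 9 DDC and 5 untreated samples, as for Igfbp3 with tumours from 7.04 and sorted samples up to 6.20.

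Matrix genes were higher in the tumours. Here and below, list counts against DDC cells stand beside 5.02% higher and 5.03% lower of all tested genes. Counts that also held against untreated cells stand beside 2.75% higher and 2.1% lower. Of 23 extracellular matrix genes tested, 14 were called higher than in DDC cells and 0 lower, with a median difference of 1.65, and 13 of the 14 were also higher than in untreated cells. The count was 10 with the Xist term and 16 without the 4 DDC samples. Col3a1, a fibrillar collagen, spanned 8.65, 10.47 and 12.31 in tumours and 5.76, 8.06 and 9.91 in DDC cells, so the groups overlapped, and it was higher by 2.68 ± 0.53 (adjusted p = 0.00086). Col6a3 (2.65), the crosslinking enzyme Lox (2.22), the matricellular gene Postn (2.17) and Col5a1 (2.15) showed comparable sizes, although averaging the probe sets gave 1.09 for Lox and 1.25 for Col5a1. None of these genes was called between DDC and untreated cells where it was tested.

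Of 14 fibroblast and stellate markers tested, 5 were higher and 0 lower, among them Col3a1 and Col1a1, which the matrix list also holds, and Pdgfrb, the receptor of pericytes and stellate cells (1.27). Of 6 smooth muscle and pericyte markers, 3 were higher, namely Acta2, the myosin light chain Myl9 (2.67 ± 0.29) and Notch3, whose difference of 1.01 sat at the threshold and lost its call in 17 of 37 settings. The mean level of the fibroblast list was 4.94 to 6.6 in tumours, 4.24 to 5.89 in DDC cells and 4.46 to 5.12 in untreated cells. The tumours were dissected whole and the cells were sorted, and the part of that handling in these differences was not tested. Mgp, a mineralisation inhibitor of vessel walls and cartilage, was named after its values were seen; it lay above all DDC samples at 3.97 to 11.01 against 2.78 to 3.53, with a difference of 4.48 ± 0.71 (adjusted p = 0.00013).

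Sinusoidal endothelial markers were lower as a group. Of 11 tested, 9 were called lower than in DDC cells and 0 higher, with a median of -2.62, against 5.03% of all genes lower. Of these 9, 8 were also below untreated cells, against 2.1% of all genes. Without the 4 DDC samples richest in these transcripts 7 were called, and with the Xist term 9. Oit3 fell by 4.05 on the log2 scale, with tumours from 3.30 to 6.73 and DDC cells from 7.15 to 11.63, and the scavenger receptor gene Stab2 by 2.93; without the 4 samples these differences were -2.61 and -1.70. Among 15 general endothelial markers 10 were lower and 1 higher. The angiopoietin receptor gene Tek (-3.10 ± 0.44, adjusted p = 4e-05), the tight junction gene Cldn5 (-2.50) and the VEGF receptor gene Kdr (-2.43) kept their calls in all 39 settings. Without the 4 DDC samples they stood at -1.84, -1.25 and -1.23, and 4 of the 15 markers were called lower.

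Vwf, the clotting factor gene of vessels outside the sinusoid, was the 1 of 15 endothelial markers called higher, a share near the 5.02% of all genes, at 2.08 ± 0.48 (adjusted p = 0.003), with tumours at 5.05, 6.44 and 8.5 and DDC cells at 3.24, 4.25 and 7.59. The groups overlapped, and the call was lost with the Xist term. Esm1, a VEGF-induced proteoglycan gene of angiogenic tip cells, was chosen after its values were seen. It spanned 4.68, 7.55 and 10.20 in tumours and 3.17, 3.60 and 5.26 in DDC cells and was higher by 3.61 ± 0.59 (adjusted p = 0.00016).

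Resident macrophage markers were lower too, though few calls held without the DDC samples rich in sinusoidal transcripts. Of 10 Kupffer cell markers, 8 were called lower and 0 higher (median -2.25), a count that dropped to 1 without DDC samples 1, 2, 4 and 5. The 8 included Slc40a1 and the endothelial cadherin gene Cdh5. The 1 that held was Marco, a scavenger receptor gene, at 2.66, 3.66 and 9.12 in tumours and 6.39, 9.62 and 10.81 in DDC cells, lower by 4.54 ± 0.80 (adjusted p = 0.00034). Of 15 general macrophage markers 7 were lower, and 2 without those samples. Gpnmb, a marker of lipid-laden and scar-associated macrophages, was lower in all 14 tumours than in any DDC sample, at 4.19 to 8.03 against 8.61 to 11.50 (-4.14 ± 0.49, adjusted p = 7.8e-06). It did not differ in call from untreated cells (0.08, adjusted p = 0.93), whereas DDC cells exceeded untreated cells by 4.22.

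Several BMP ligands and BMP-responsive genes, and hepcidin, were lower in the tumours. Hepcidin, encoded by Hamp, is the liver hormone that blocks iron export, and its transcription answers to BMP2 and BMP6 from sinusoidal endothelium through SMAD proteins, which also induce the ID genes and the inhibitory SMADs. Of 19 TGF-beta and BMP genes tested, 7 were lower than in DDC cells and 2 higher, and 8 and 2 without the 4 DDC samples as well as with the Xist term. The lower ones were Bmp2, Bmp6, Id1, Id2, Id3, Smad6 and Smad7, and the higher ones Bmp4 (1.65) and Tgfb3 (1.21), the latter lost with the Xist term.

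Promoter letters of some of these genes were also read. In them, 250 bases before the RefSeq start (build GRCm38.p6) were searched on both strands for GGCGCC. This is the core of the BMP-responsive element described in hepcidin promoters. The motif is its own reverse complement and occurred in 3149 of 32851 windows of that length (9.59%). The 3 windows that held it among the 8 genes searched are printed on the gene's own strand, with the match in capitals. The Hamp match lies 109 bases before the start, at chr7:30944093-30944178, minus strand.
Hamp: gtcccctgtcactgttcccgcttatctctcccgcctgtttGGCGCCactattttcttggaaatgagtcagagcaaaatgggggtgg
Id4: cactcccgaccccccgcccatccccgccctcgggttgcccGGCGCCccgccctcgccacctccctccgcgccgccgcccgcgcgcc
Id2: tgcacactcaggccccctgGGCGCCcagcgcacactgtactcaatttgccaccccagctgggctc
The Id4 stretch is chr13:48260928-48261013, plus strand, with its match 148 bases before the start, and the Id2 stretch is chr12:25096278-25096342, minus strand, with its match at 231. Bmp2, Id1 and Smad7 were not searched. The windows of Hamp2, Id3, Smad6, Bmp6 and Atoh8 held no match, and Atoh8 was not tested on the array. A match describes letters only, and both the motif and the genes were chosen after the levels were known.

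The ligands stood below every DDC sample. Bmp2 was at 4.64, 6.4 and 8.12 as lowest, median and highest tumour level and at 9.20, 10.40 and 12.43 in DDC cells, lower by 4.24 ± 0.48 (adjusted p = 5.9e-06). Its DDC level was 12.07 to 12.43 in the 4 endothelial-rich samples and 9.20 to 10.40 in the other 5, and against those 5 the difference was still -3.05. Bmp6 was at 3.39, 4.78 and 6.26 in tumours and 6.75, 7.2 and 8.29 in DDC cells, lower by 2.79 ± 0.28 (adjusted p = 2.2e-06). The difference was -2.34 without the 4 DDC samples.

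Hamp was lower in most tumours. Its levels were 3.0, 7.15 and 12.41 in tumours, 9.82, 12.40 and 12.83 in DDC cells, and 12.22, 11.52, 12.53, 12.80 and 12.20 in the untreated samples. In all, 13 of 14 tumours lay below the lowest DDC sample, and tumour 4, at 12.41, lay within the sorted range. The difference was -5.11 ± 0.84 (adjusted p = 0.00018), and -5.80 without the 4 endothelial-rich DDC samples, which held the 4 lowest Hamp levels and the 4 highest Bmp2 levels of that group. Whether Hamp answered to the ligands was not tested. DDC itself did not change it by call (-0.36). The paralogue Hamp2 was lower by 2.93, a call lost with the Xist term. Sequence similarity between Hamp and Hamp2 leaves their probe signals uncertain.

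Genes known as targets of BMP signalling were lower as well. Id3 lay at 7.01, 7.54 and 8.65 in tumours and 9.65, 9.85 and 11.08 in DDC cells, a difference of -2.58 ± 0.22 (adjusted p = 2.5e-07), and every untreated sample was at 9.88 or above. Id1 was lower by 2.58 ± 0.30, Smad6 by 2.26 ± 0.36 and Smad7 by 1.37 ± 0.21, and Smad6 stood at -1.29 without the 4 DDC samples. Id4, which the lists do not hold and which was named after its values were seen, was lower by 4.06 ± 0.45, with all tumours below all DDC samples. Id1 and Id4 had risen after DDC by 1.88 and 2.02 relative to untreated cells, and Id1 in tumours was not called against untreated cells (-0.70). Id2 differed least (-1.08) and lost its call without tumour 7.

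The hepcidin regulators that act on the hepatocyte surface showed little of this. The transferrin receptor gene Tfr2 (0.47, adjusted p = 0.35), the BMP co-receptor gene Hjv (0.11, adjusted p = 0.91) and the protease gene Tmprss6 (0.82, adjusted p = 0.16) were not called. Hfe was lower by 1.05, but lost its call in 10 of 39 settings. The ferroportin gene Slc40a1 was lower by 1.06 and lost its call in 10 settings as well. Tfrc, which imports transferrin-bound iron, was higher by 1.76 ± 0.34 (adjusted p = 0.00069), at 8.37 to 11.15 in tumours and 6.59 to 8.81 in DDC cells, a call lost when the mean of its probe sets was used.

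**Figure D3:**
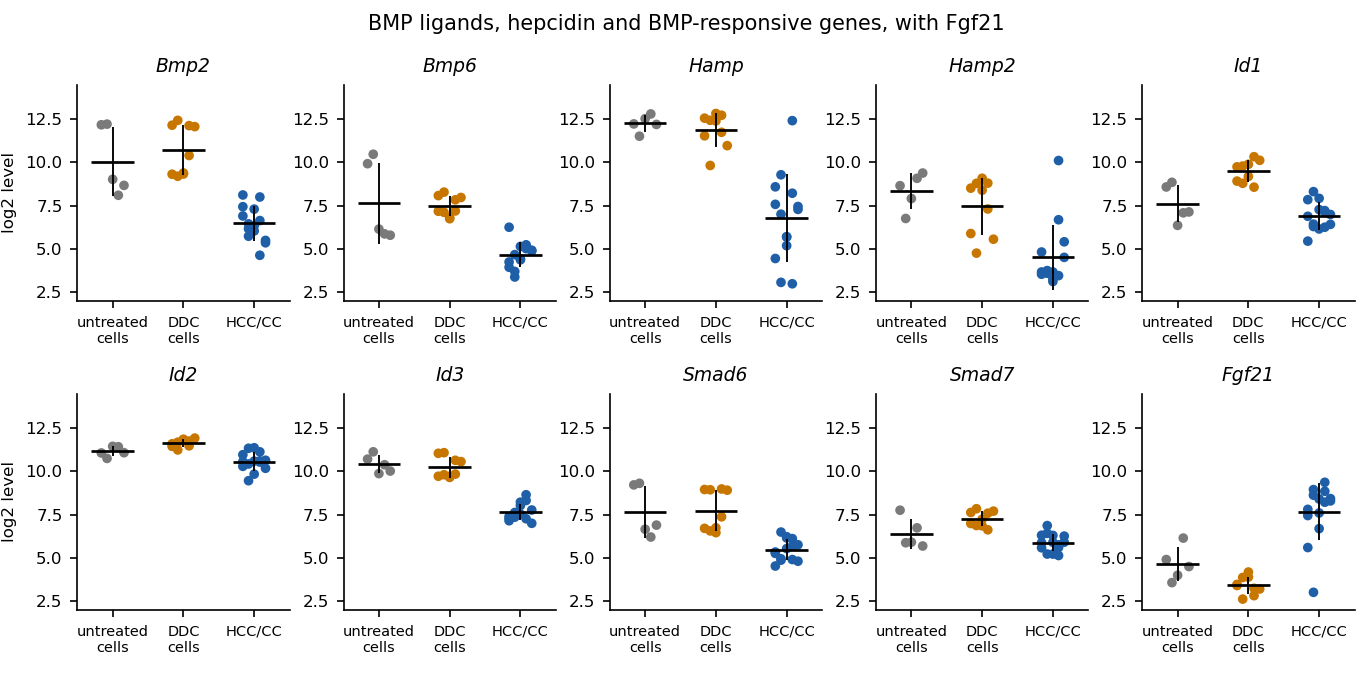
Log2 levels in each array (points) with group mean (bar) and standard deviation (line) for BMP ligands, hepcidin genes and BMP-responsive genes, with Fgf21 as a contrast in the opposite direction. Bmp2, Bmp6 and Id3 separate all 14 tumours from the 9 DDC samples, while Hamp leaves 1 tumour at 12.41 among the sorted samples.

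Lipid storage and synthesis genes were higher in the tumours. Of 19 lipogenesis genes tested 9 were higher and 0 lower, with a median of 1.13. The count was 4 with the Xist term and 2 without the 4 endothelial-rich DDC samples, and 4 of the 9 were also higher than in untreated cells. Cidea, a lipid droplet fusion protein normally abundant in brown fat, spanned 3.85, 9.41 and 12.23 in tumours, while DDC cells stayed at 3.0 to 4.11. The difference of 5.13 ± 0.92 (adjusted p = 0.00041) came from 12 tumours at 5.35 or above, with tumours 1 and 3 at 3.95 and 3.85. Fads2, a fatty acid desaturase, was higher by 2.23 ± 0.43, and by 1.40 without the 4 DDC samples. The fatty acid synthase gene Fasn was higher by 2.03, a call lost without the 4 DDC samples, as were those of Me1 (2.15) and of the lipase-like gene Pnpla3 (2.90), which the Xist term also ended. Without the 4 samples the difference of Pnpla3 was still 2.78 (adjusted p = 0.095), whereas those of Fasn and Me1 were 1.17 and 1.47.

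Mogat1, an acyltransferase of triglyceride synthesis outside the list, was named after its values were seen. It was at 2.97, 8.82 and 10.27 in tumours and 2.73, 2.97 and 3.16 in DDC cells, a difference of 5.15 ± 0.63 (adjusted p = 9.3e-06). In 13 of 14 tumours it was 5.68 or higher, and tumour 2, at 2.97, was within the DDC range.

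Fgf21, a stress-induced liver hormone that raises fat oxidation, was also named after its values were seen. Its levels were 3.02, 8.26 and 9.37 in tumours and 2.63, 3.42 and 4.19 in DDC cells, with untreated samples at 4.91, 3.58, 4.01, 6.15 and 4.51. Again only tumour 2 lay among the DDC samples. The difference was 4.25 ± 0.54 (adjusted p = 1.4e-05) and held in 39 settings between 3.93 and 4.90.

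Fgf21 belongs to the targets of the amino acid and endoplasmic reticulum stress factors ATF4 and CHOP, whose composite element reads TGATGNAA. It occurred on either strand in 1134 of 32851 upstream windows (3.45%). Among the 10 stress genes searched, chosen after the levels were known, the windows of Fgf21, Chac1, Asns and Atf3 held 1 match each. The first 2 are printed because both genes were higher in tumours; their capitals are the motif on the opposite strand.
Fgf21: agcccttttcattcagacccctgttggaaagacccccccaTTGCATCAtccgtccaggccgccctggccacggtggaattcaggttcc
Chac1: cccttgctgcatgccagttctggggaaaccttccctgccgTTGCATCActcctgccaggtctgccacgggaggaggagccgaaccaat
The Fgf21 stretch is chr7:45615582-45615669, minus strand, with the match beginning 139 bases before the start, and the Chac1 stretch is chr2:119351009-119351096, plus strand, with the match at 193. Windows of Atf4, Atf5, Creld2, Ddit3, Psat1 and Trib3 held none.

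Within the unfolded protein response list 5 of 20 genes were higher and 0 lower (median 0.27). Psat1, of serine synthesis, was at 4.94 to 9.05 in tumours and 4.06 to 5.24 in DDC cells (2.25 ± 0.41, adjusted p = 0.00041) and was the 1 member also above untreated cells. Atf5 (2.38, or 1.5 without the 4 DDC samples), the glutathione-degrading Chac1 (1.67) and Creld2 (1.34) were instead lower in DDC than in untreated cells by 1.80, 1.39 and 1.73, and tumours were not called against untreated cells. Ddit3, encoding CHOP, was higher by 1.03 and lost its call in 11 of 39 settings. Asns and Atf3, which also carry the motif, gave -1.07 and -0.73 and were not called, so the motif did not sort the genes by direction.

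Hypoxia and glycolysis genes gave 6 higher and 0 lower of 19, with a median of 0.67, and 5 of the 6 were above untreated cells too. With the Xist term the count was 3. Ankrd37 led, followed by hexokinase 2, Hk2 (1.63 ± 0.49, lost with the Xist term and 2.65 without the 4 DDC samples). Next came the oxygen sensor gene Egln3 (1.52, lost without the 4 DDC samples) and Pfkl (1.31). The Pfkl call was lost when its probe sets were averaged or the _a_at, _s_at and _x_at classes dropped. Ankrd37 was at 4.77, 5.95 and 9.54 in tumours and 2.95, 3.74 and 4.72 in DDC cells, a difference of 2.31 ± 0.43 (adjusted p = 0.00048). It was the 1 member whose groups did not overlap.

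Some intestinal genes, those of the guanylin peptides among them, were higher in many tumours than in DDC cells. Of 14 gut and pancreatic endocrine genes measured 0 were tested, since no group mean passed the filter. The mean of that list was 2.99 to 3.47 in tumours. Of 13 intestinal genes tested 6 were higher than in DDC cells and 0 lower (median 1.63), and 2 higher and 1 lower without the 4 DDC samples. Guca2a, which encodes guanylin, a peptide of intestinal fluid secretion, was at 3.57, 7.16 and 11.55 in tumours and 2.87, 3.40 and 4.37 in DDC cells (4.06 ± 0.77, adjusted p = 0.00062). Its neighbour in function Guca2b, for uroguanylin, reached 11.70 in the highest tumour and 3.86 in the highest DDC sample (3.55 ± 0.82, adjusted p = 0.0031). Tumours 1 and 3 lay within the DDC range for Guca2a. Vil1 (2.24) and Fabp2 (2.81) were higher but lost their calls without the 4 DDC samples, Fabp2 also with the Xist term, and Reg3b, an antimicrobial lectin gene, ran from 2.59 to 13.07 among the tumours, with 7 of them at 6.70 or above and a call (3.47) that was lost without those samples, where the difference was 3.46 (adjusted p = 0.16).

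Immediate early genes, which respond within minutes to stimuli and to tissue dissociation, were lower in tumours. Of 16 tested 8 were lower and 0 higher (median -1.08), 6 of them beyond injury, and 3 stayed called without the 4 DDC samples. Fos was at 4.13, 6.74 and 7.98 in tumours, 8.64, 10.35 and 11.65 in DDC cells, and 11.08, 11.32, 10.87, 11.29 and 10.87 in untreated cells. The difference from DDC cells was -3.57 ± 0.42 (adjusted p = 7.8e-06). Nr4a1 was lower by 2.12 ± 0.35, and the phosphatase gene Dusp1 by 1.46, a call lost without the 4 DDC samples. All sorted cells were dissociated and the tumours were not; the part of that handling was not tested.

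Heat shock genes moved differently. Of 12 tested, 3 were higher in tumours than in DDC cells and 0 lower. Hspb1, a small chaperone, was at 8.04, 9.25 and 10.54 in tumours and 5.02, 6.54 and 7.52 in DDC cells, 2.68 ± 0.31 higher (adjusted p = 6.2e-06; 1.55 with its probe sets averaged), and Hsph1 was 2.06 ± 0.31 higher. Tumours were not called against untreated cells, and DDC cells lay below untreated cells by 3.44 and 2.71. The Cryab call (1.39) was lost in 22 of 38 settings.

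Genes that rose most after DDC were also high in tumours against untreated cells. Of the 10 largest increases after DDC, all 10 were also higher in tumours than in untreated cells, as were 17.7% of all genes tested. Between tumours and DDC cells 6 of the 10 were not called. The rest were lower, whereas 5.03% of all genes tested were lower. The increases were picked against the same 5 untreated samples, so the first count is a description. Lcn2, an iron-scavenging acute phase protein, held 3.15, 5.30, 7.19, 3.78 and 4.28 in untreated cells, 9.76, 12.02 and 12.47 in DDC cells and 10.65, 12.89 and 13.22 in tumours. The tumours were 0.95 ± 0.30 higher than DDC cells, under the threshold of 1 for a call. The other 5 in this class were Gt(ROSA)26Sor, a transcript of the Rosa26 locus (-0.69), the ubiquitin-like Ubd (1.36, adjusted p = 0.12), Cpe (0.21), D17H6S56E-5 (-0.73) and the acute phase gene Orm2 (0.49). Sorted neonatal liver cells held Lcn2 at 9.28 to 9.81, Gt(ROSA)26Sor at 7.47 to 7.79 and D17H6S56E-5 at 9.25 to 9.46. Their Ubd, Cpe and Orm2 levels were at most 4.25, 4.78 and 3.225. The labels name no genotype or allele, so DDC and a difference in alleles cannot be told apart here.

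The other 4 of the 10 largest increases were lower in tumours than after DDC while still above untreated cells. Mmp12, the macrophage elastase gene, was at 3.63, 7.61 and 9.54 in tumours and 8.76, 10.24 and 12.02 in DDC cells, lower by 2.74 ± 0.54 (adjusted p = 0.0009). Sprr1a (-2.25), Ear3 (-2.14) and the chemokine gene Cxcl14 (-1.91) lost their calls with the Xist term. The last 2 also lost them without the 4 DDC samples, Ear3 at -1.25 and Cxcl14 at -1.81 (adjusted p = 0.16), while Sprr1a stood at -3.37.

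Mature hepatocyte genes lost after DDC stayed low in most tumours. Of the 10 largest decreases after DDC, 8 were also called lower in tumours than in untreated cells, against 6.1% of all genes tested. The same untreated samples again stood in both comparisons. Hsd3b5, a steroid dehydrogenase gene of male liver, was the most uniform, at 2.49 to 3.02 in tumours and 2.37 to 3.17 in DDC cells, against 9.44 to 10.91 in untreated cells. It was not tested between tumours and DDC cells, since both means were below the filter, as were those of Serpina4-ps1, Elovl3 and Slco1a1. Mup3, a male urinary protein gene, varied more, from 2.69 through 4.65 to 12.52 in tumours, with untreated samples at 13.05 to 13.70. Several of these genes are higher in male than in female mouse liver. Xist exceeded 7 in 12 of 14 tumours, in 1 of 9 DDC samples and in 0 of 5 untreated samples. The part of sex in these levels was not tested.

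Some hepatocyte genes were higher in tumours than in DDC cells and were not called between tumours and untreated cells. Serpina12, the adipokine vaspin, was at 3.40, 10.79 and 11.67 in tumours and 2.97, 5.36 and 7.90 in DDC cells (4.53 ± 0.82, adjusted p = 0.00041), with untreated cells at 7.81 to 10.27 and no call against them. Dio1, which activates thyroid hormone, showed the same order (4.07 ± 0.72, adjusted p = 0.00037), at 9.74 in the median tumour, 4.66 after DDC and 9.65 in untreated cells. Cyp4a12a (4.27) and the fat storage gene Fitm1 (3.22) lost their calls without the 4 endothelial-rich DDC samples. In that setting Cyp4a12a was 3.67 higher in tumours than in DDC cells, while DDC minus untreated was -5.96. A missing call against untreated cells thus did not mean an equal level.

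The reverse class was lower in tumours than in DDC cells and was not called between tumours and untreated cells. Cyp2b10, a target of the xenobiotic receptor CAR, was at 2.90, 4.51 and 8.34 in tumours, 6.62, 10.34 and 11.38 in DDC cells and 4.12 to 8.20 in untreated cells (-4.47 ± 0.74, adjusted p = 0.00021). Gpnmb, Cyp2c37 (-3.98) and the fatty acid binding gene Fabp7 (-3.58) shared this pattern, as did Cyp7a1, the rate-limiting enzyme of bile acid synthesis (-3.54, lost with the Xist term). For Cyp2c37, untreated sample 5 stood at 10.03 and the nearest untreated sample at 4.36. Lpl, lipoprotein lipase, was lower than in every DDC sample (8.54 to 11.41 against 11.51 to 12.66) but higher than in untreated cells by 1.95.

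**Figure D4:**
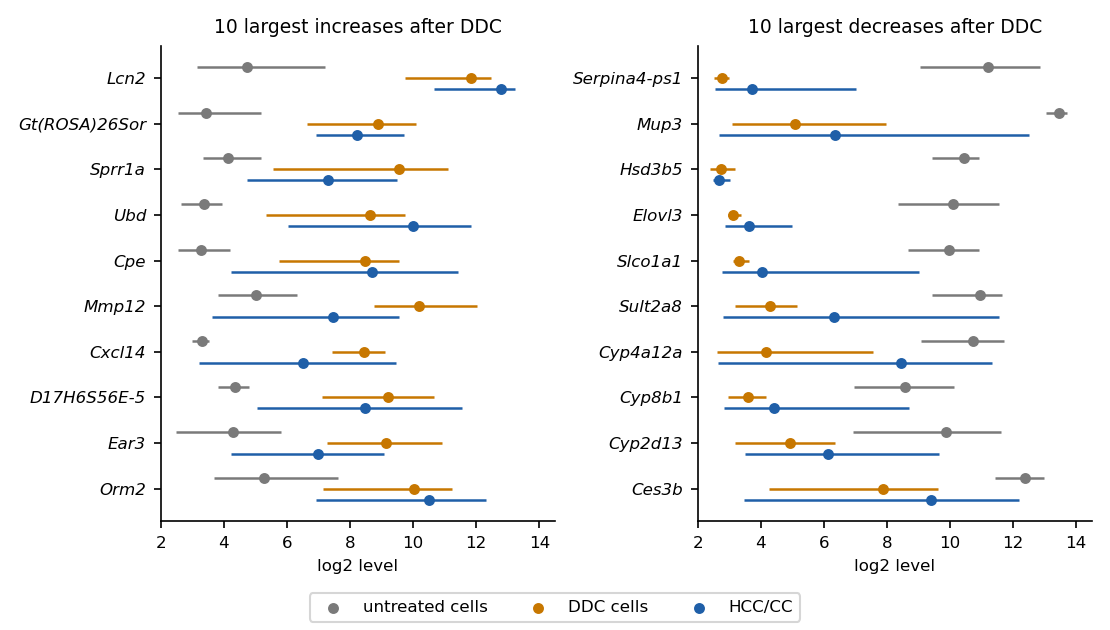
Mean (point) and range (line) of the log2 level in untreated cells (n = 5), DDC cells (n = 9) and HCC/CC (n = 14) for the 10 largest called increases and decreases of DDC against untreated cells. Lcn2 stays above 9.7 in DDC cells and tumours alike, Mmp12 lies between its DDC and untreated levels in tumours, and Cyp4a12a spans 2.64 to 11.32 among tumours.

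Of 19 proliferation and 24 DNA replication genes 0 were counted as beyond injury. Against 2.75% higher and 2.1% lower of all genes these numbers are too small to read. Of the 19 proliferation genes, 18 were higher after DDC than in untreated cells, against 16.4% of all genes. In tumours 13 were higher than in untreated cells, against 17.7% of all genes. Between tumours and DDC cells 0 were higher and 3 lower, Ccnb2 (-1.44), Cenpa (-1.30) and Cdk1 (-1.01), and 0 with the Xist term. Ccnb2 lost its call in 20 of 39 settings and Cdk1 in 11, and Cenpa lost it also without the 4 DDC samples (adjusted p = 0.076), where Ccnb2 stood at -2.18. Of the 24 DNA replication genes 2 were lower, a number too small to read against the 5.03% of all genes. Cdt1, a replication licensing factor, was at 6.41, 7.66 and 8.35 in tumours and 8.20, 8.69 and 9.06 in DDC cells (-1.15 ± 0.23, adjusted p = 0.00083). The Cdt1 call was lost when its probe sets were averaged or the _a_at, _s_at and _x_at classes dropped.

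Epithelial identity markers gave no calls between tumours and DDC cells. None of 17 hepatocyte and none of 13 cholangiocyte markers was called, with median differences of 0.23 and 0.67. These numbers are too small to read against the 5.02% higher and 5.03% lower of all genes. After DDC 8 of 12 cholangiocyte markers had risen, against 16.4% of all genes. In tumours 7 of 13 were higher than in untreated cells, against 17.7% of all genes. The mean cholangiocyte level was 4.17, 5.73 and 10.08 in tumours and 3.61, 5.38 and 7.42 in DDC cells. Without the 4 endothelial-rich DDC samples 2 hepatocyte markers were called lower in tumours. Of 11 oncofetal genes Igf2bp3 (1.66) and Ly6d (1.47) were higher, and 0 stayed called with the Xist term or without those samples. Igf2, the fetal growth factor, reached 11.99 and 12.63 in tumours 3 and 10 and was at most 6.33 in the other 12, with no call (2.14, adjusted p = 0.11).

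**Figure D5:**
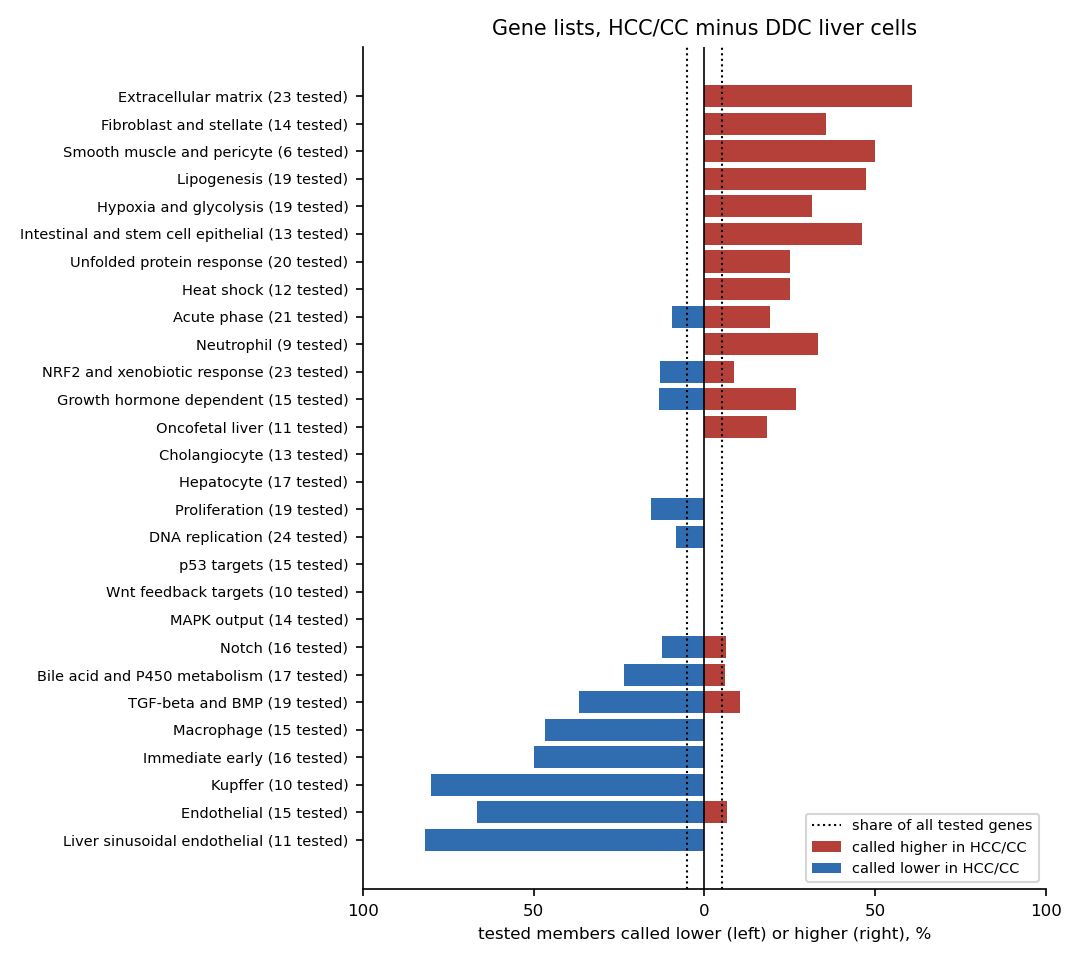
Share of tested members called lower (left) or higher (right) in HCC/CC than in DDC cells for 28 gene lists, in percent, with the shares of all tested genes (5.03% lower, 5.02% higher) as dotted lines. Matrix, smooth muscle, lipogenesis and intestinal lists extend to the right, and sinusoidal endothelial, Kupffer and immediate early lists to the left.

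Other lists held few calls between tumours and DDC cells. No member was called among 15 p53 targets, 14 MAPK output genes, 11 imprinted growth genes and 10 Wnt feedback targets, nor among 7 keratins, 6 Hedgehog genes, 4 markers of T and NK cells, 2 of mesothelium and 2 of Schwann cells, numbers too small to read against the background of 5.02% and 5.03%; without the 4 DDC samples 4 Wnt feedback targets were lower. Of 21 acute phase genes 4 were higher, with Saa1 (1.72) and Saa2 (1.84) lost without those samples, and Hamp and Socs3 (-1.77, lost likewise) were lower. Of 23 NRF2 and xenobiotic response genes 2 were higher and 3 lower, with Hmox1, which degrades heme, at 6.09, 7.05 and 8.83 in tumours and 7.53, 9.44 and 10.80 in DDC cells (-2.21 ± 0.42, adjusted p = 0.00068, and -1.32 without the 4 DDC samples). Of 17 bile acid and P450 genes 1 was higher and 4 lower, and of 15 growth hormone dependent genes 4 were higher and 2 lower. The NRF2 counts and the 1 higher bile acid gene are too small to read against 5.02% and 5.03% of all genes. Of 9 neutrophil markers 3 were higher, and 0 with the Xist term. Of 4 red cell genes tested, Hba-a1 (4.11) and Alas2 (2.41) were higher in tumours and 1, Tal1, was lower. The Tal1 call was lost without the 4 DDC samples. The mean level of the red cell list was 5.107 ± 0.458 in tumours, 4.385 ± 0.421 in DDC cells and 5.296 ± 0.451 in untreated cells. Both sorted groups were freed of red cells and the tumours were not. The part of that handling was not tested.

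Levels in related samples outside the comparison can be set beside these values as a description. The intestinal and the lung metastasis of HCC/CC, 1 sample each, held Igfbp3 at 10.37 and 10.66, Acta2 at 9.59 and 9.60, Clec4g at 3.26 and 3.37, and Hamp at 6.25 and 5.95, all within the tumour range or beyond it on the side away from DDC cells. Their Guca2a levels were 10.67 and 11.17. The intestinal one lay above the 14 tumours for Fos (8.33) and Bmp2 (8.43), though below every DDC sample for both. Both hepatoblastomas lay below the tumour range for Cidea, at 3.01 and 3.15. For Igfbp3, hepatoblastoma 1 lay within the tumour range at 11.17 and hepatoblastoma 2 below it at 6.15. Sorted neonatal liver cells (n = 3) kept Fos at 11.55 to 11.93, Id3 at 8.85 to 9.07 and Bmp2 at 8.86 to 9.60, above all 14 tumours, while their Bmp6 levels of 3.66 to 4.29 lay within the tumour range.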

How the data were processed

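The values used are the authors' deposited log2 levels of 45141 probe sets, which ran from 1.85 to 14.36. Partek 6.6 is named per the submitters' processing notes; for background correction and normalization, the sources used here give nothing. After 104 control probe sets, 551 that name several genes and 15588 without a gene in the platform annotation were left out, 28898 probe sets naming 17097 genes remained, of which 28689 matched a RefSeq gene. Each gene was represented by its probe set of highest mean level, and it was tested where at least 1 group mean exceeded the 40th percentile of the arrays in the fit. Groups were compared with lmFit and eBayes with an intensity trend (limma 3.58.1 and the package data.table, version 1.17.8, in R 4.3.3), checked on simulated data, with calls at a Benjamini-Hochberg p below 0.05 and a log2 difference of 1 or more either way. The DDC to untreated fit used 40 sorted samples in 10 groups. Promoter searches and plots used matplotlib 3.10.9, pandas 2.3.3 and numpy 2.4.6 under Python 3.11.15.

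The members and the 58 gene lists (960 genes, 854 measured) were chosen with earlier results of these data known. Genes were named by a rule: Prom1, the beyond-injury genes without overlap (up to 15 in each direction), the 10 largest changes each way after DDC, the 5 largest each way called against DDC but not against untreated cells, and up to 4 members of a list with the largest differences. Other genes named, such as Fgf21, Mogat1, Mgp, Esm1, Vwf, Id1, Id2, Id4, Smad6, Smad7, Bmp4, Tgfb3, Hfe, Slc40a1, Tfr2, Hjv, Tmprss6, Stab2, Cdh5, Pdgfrb, Col5a1, Fasn, Ddit3, Asns, Atf3, Vil1, Xist and Eif2s3y, were chosen after their values were seen. Alternatives covered scaling, filter, probe set choice, prior, weights, samples in the fit and each sample left out. The number of arrays limits the precision.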

Additional observations from a re-analysis of the deposited data

Results flagged for a closer look

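Among 144 groups of levels examined, 5 held a sample far from its neighbours. These groups were read on the same arrays and are not independent, so the count cannot be set against a chance rate. In DDC sample 2, Lcn2 was lowest at 9.76 with the nearest sample at 11.18, and Sprr1a was lowest at 5.57 with the nearest at 8.44; this is also the sample with the lowest hepatocyte marker mean, 9.92, and its part in these values was not tested. Untreated sample 5 held Cyp2c37 at 10.03 where the nearest sample held 4.36. Untreated sample 3 was lowest for Fam241b at 3.81, next to 4.47. The mean of the pancreatic acinar markers was 10.65 in untreated sample 1 and 5.65 in the nearest untreated sample.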

How the results depend on the processing

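Of the results for single genes, 100 kept their call in every setting run, 95 lost it in at least 1, and 0 changed sign. The term for high Xist ended the call of 51 of 175, and leaving out the 4 DDC samples rich in sinusoidal transcripts ended 64. The cause was not tested. High Xist nearly followed group, which lowers the precision of the first setting, and the second setting has fewer samples. As percent of the genes tested, that setting gave 3.09% higher and 2.38% lower between tumours and DDC cells and 1.04% lower beyond injury, and leaving out the 2 DDC samples with Prom1 under the filter value gave 3.36% lower. The Xist term gave 10.5% higher and 3.24% lower against untreated cells, and 1.6% higher and 0.75% lower beyond injury. Array weights gave 1.26% lower beyond injury. Quantile normalization gave 10.9% higher and 10.9% lower for tumours against untreated cells, and 10.6% and 9.48% for DDC against untreated cells.

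Leaving out 1 sample at a time gave 3.81% to 5.63% higher and 4% to 6.04% lower between tumours and DDC cells, and 14.3% to 20.9% and 5.61% to 6.48% against untreated cells. Beyond injury the ranges were 2.24% to 3.05% and 1.46% to 2.43%, and for DDC against untreated cells 13.4% to 20.5% and 4.22% to 7.58%. No paired analysis was possible because the labels tie no tumour to a sorted sample.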
